A study of Mus musculus with 6 samples.

Results

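Genes for receptors of glutamate, GABA, glycine and extracellular nucleotides were examined in sorted mouse outer hair cells. Described are 62 symbols, of the 23337 listed in the count files, that name subunits of AMPA (4), kainate (5), NMDA (7) and delta (1) receptors, metabotropic glutamate receptors (7), GABA-A (16) and GABA-B (2) receptors, glycine receptors (5), and P2X (7) and P2Y (8) receptors. They were taken by symbol, and the families were chosen with earlier results of these data known.

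The RNA came from cochlear outer hair cells at E18.5, a late embryonic stage, isolated by flow cytometry on the GFP of an Insm1-GFP-Cre allele, which served as the sorting marker in both genotypes. There were 3 Insm1-KO libraries and 3 Insm1-Het libraries. Insm1 encodes a zinc-finger transcription factor of nascent outer hair cells, and the title of the study concerns their conversion into inner hair cells without it. The labels do not say whether a library came from 1 animal or a pool, so p-values measure the spread between these libraries only, which may be technical.

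Outer hair cells amplify sound in the cochlear partition, while inner hair cells release glutamate onto the afferent neurons. Before the onset of hearing, supporting cells near the hair cells release ATP, which acts on P2X channels and P2Y G-protein-coupled receptors and drives spontaneous activity in the developing cochlea. AMPA, kainate and NMDA receptors are cation channels opened by glutamate, and the metabotropic receptors signal through G proteins. GABA-A and glycine receptors are chloride channels, and GABA-B receptors are G-protein-coupled pairs of 2 subunits.

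The KO libraries held 7705180 to 9748630 counts and the Het libraries 10721900 to 12427000 counts. Insm1 itself was at 78.7, 60.3 and 18.7 CPM (counts per 1000000 counts after TMM scaling) in KO replicates 1, 2 and 3, against 109.3, 116.2 and 69.2 CPM in Het replicates 1, 2 and 3. The value of KO replicate 1 exceeded that of Het replicate 3. Which bases of Insm1 are deleted is not given in the sources used here, so counts can include reads from remaining sequence. The 12 general hair cell markers were all tested, and summed to between 12758 and 15887 CPM in KO and between 12376 and 13277 CPM in Het libraries. The 8 outer hair cell markers included Insm1, and the other 7 summed to between 679 and 818 CPM in KO and between 716 and 862 CPM in Het libraries. Among these 7, Ocm was separate, with 15, 22 and 33 counts in KO and 0 in every Het library. Strip2, listed as Fam40b, was separate the other way, at 213, 191 and 201 CPM in KO and 332, 244 and 270 CPM in Het libraries. The rest of the 7 overlapped. The 6 inner hair cell markers summed to between 340 and 781 CPM in KO and between 325 and 492 CPM in Het libraries, most of it from Nhlh1 outside KO replicate 3. Single markers of this list were separate, with Brip1 at 76.8, 88.04 and 422 CPM in KO and 0.489, 0 and 5.93 CPM in Het libraries, and Tbx2 at 4.06, 19.2 and 5.01 CPM in KO and 0.163, 0.0937 and 0.632 CPM in Het libraries. The rest of this list overlapped. Nhlh1 and 4930506M07Rik went the other way, with log2 fold changes of KO over Het of -0.22 and -1.77 by edgeR. Both 95% intervals included 0. Slc17a8 had 18, 0 and 0 counts in KO and 6, 0 and 15 counts in Het libraries. Fgf8 had 87, 0 and 42 counts in KO and 0 in every Het library. The part of these markers in the receptor results was not tested. Across all 11714 genes that passed the filter on low counts, 0 had an adjusted p under 0.05 in the edgeR quasi-likelihood test of KO against Het, while 626 (5.34%) had an unadjusted p under 0.05, and DESeq2 and limma-voom had 858 and 606.

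P2rx3, the P2X3 subunit known from ATP-gated channels of sensory neurons, was an abundant transcript. Per kb of exon it stood at rank 167 among 20953 symbols with an annotated exon length, at 97.0 ± 10.5 CPM per kb in KO and 153 ± 10.4 CPM per kb in Het libraries (SD, n = 3 each). Grik5, a kainate receptor subunit, stood at rank 5745, at 6.32 ± 3.70 CPM per kb in KO and 6.40 ± 1.33 CPM per kb in Het libraries. P2rx3 exceeded Grik5 in every library.

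**Figure D1:**
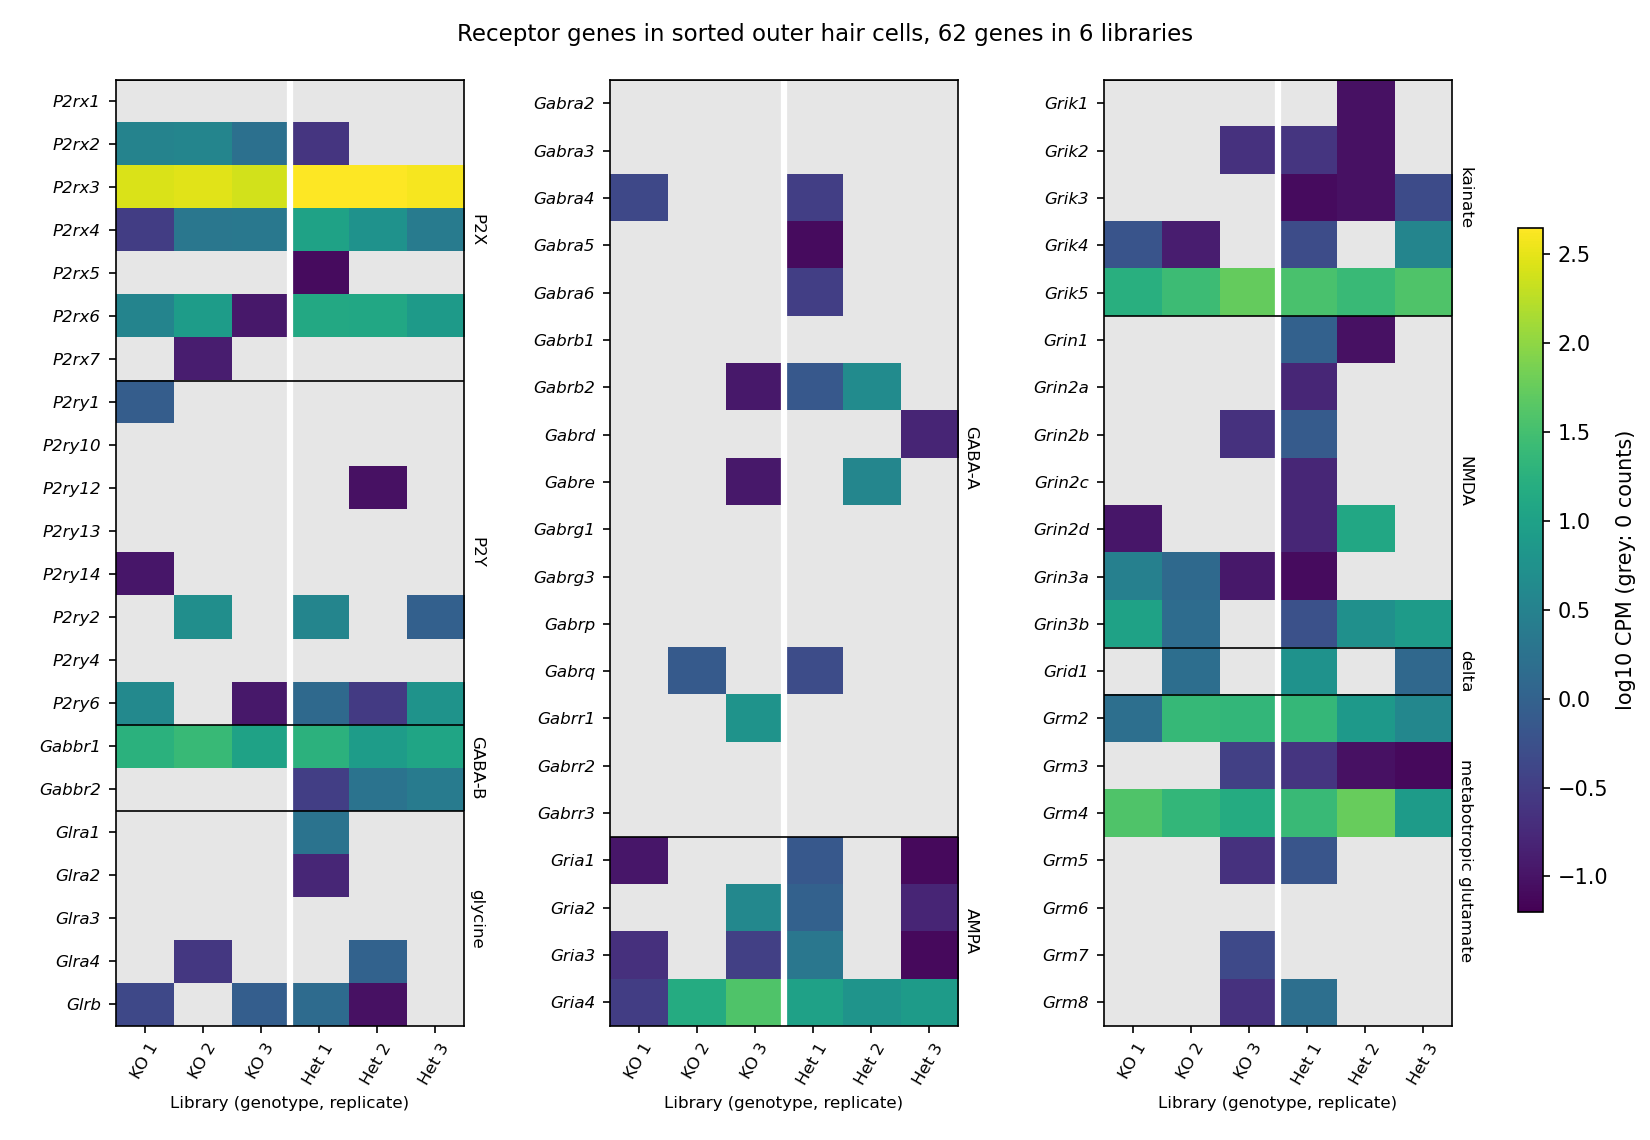
Log10 CPM of the 62 receptor genes described (rows, grouped by family) in the 3 KO and 3 Het libraries (columns); grey marks 0 counts. The P2rx3 row is bright in every library, and most other rows are grey or dark in at least 1 library.

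Of the 62 genes, 5 had at least 10 counts in all 6 libraries, namely P2rx3, Grik5, Grm4, Grm2 and Gabbr1. That is 8.06% of them, against 39.9% of all listed symbols. A further 23 members (37.1%) reached 10 counts in some but not all libraries, against 20% of all symbols, and 20 members (32.3%) stayed under 10 counts wherever they were seen, against 7.15% of all symbols. The other 14 members (22.6%, against 32.9% of all symbols) had 0 counts in every library, namely Gabra2, Gabra3, Gabrb1, Gabrg1, Gabrg3, Gabrp, Gabrr2, Gabrr3, Glra3, Grm6, P2rx1, P2ry4, P2ry10 and P2ry13. A count of 0 allows up to 3 counts, or 0.320 to 0.391 CPM in a KO library and 0.237 to 0.281 CPM in a Het library, and this floor covers counting error only. The number of members with at least 1 count was 20, 17 and 23 in KO replicates 1, 2 and 3, against 38, 22 and 20 in Het replicates 1, 2 and 3, so Het replicate 1 showed the most.

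Of the 62 members, 12 passed the filter on low counts and were tested, and 0 passed over all genes, against a background of 0% of all tested genes. At an unadjusted p under 0.05 there were 2 members, P2rx2 with the higher and P2rx3 with the lower value in KO, against 3.19% of all tested genes higher and 2.15% lower in KO. By edgeR's test 4 tested members had a log2 fold change above 0 and 8 below 0, with a median of -0.23, while 50.9% of all tested genes lay above 0 with a median of 0.02. A gene with low counts could enter the test through the genotype in which it was high, so these counts describe the 12 genes and support nothing about the family. DESeq2 and limma-voom also passed 0 members and had the same 2 genes at an unadjusted p under 0.05.

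**Figure D2:**
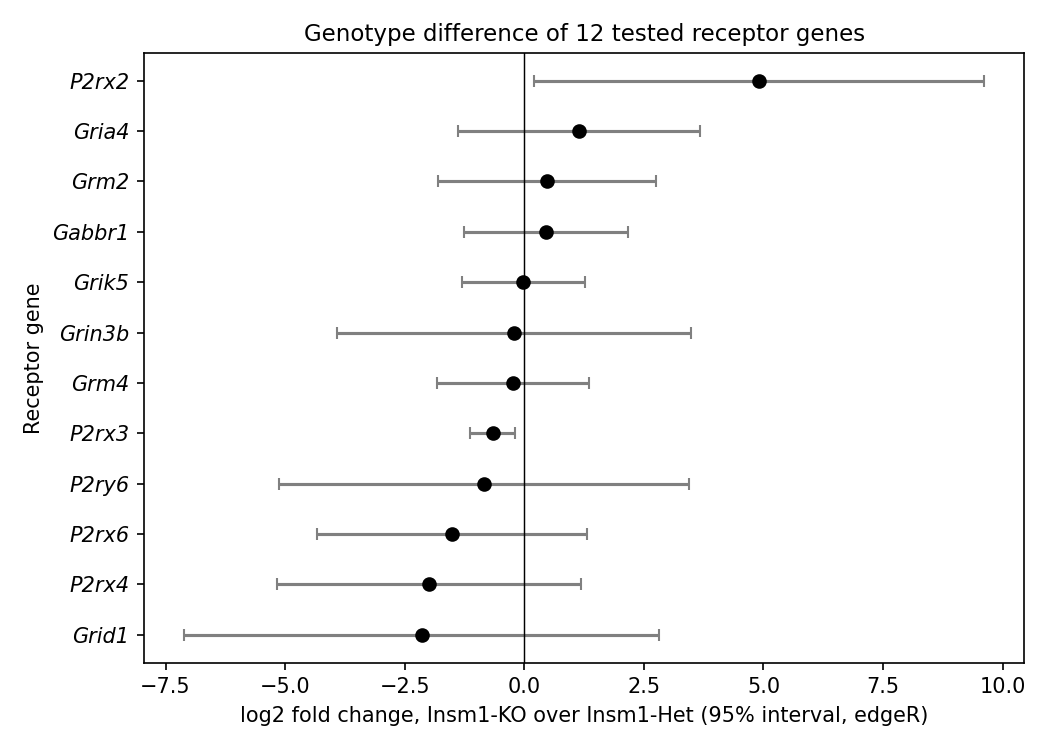
Log2 fold change of KO over Het with its 95% interval from edgeR for the 12 receptor genes described that were tested (rows). The interval of P2rx3 is narrow and lies below 0, that of P2rx2 is wide and lies above 0, and the other 10 cross 0.

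P2rx3 was lower in every KO library than in any Het library. Its level was 269, 301 and 242 CPM in KO replicates 1, 2 and 3, against 444, 445 and 394 CPM in Het replicates 1, 2 and 3, with means of 271 ± 29.2 and 428 ± 29.1 CPM (SD, n = 3 each). The KO mean was thus 63.3% of the Het mean, and the 2 ranges did not meet. The log2 fold change was -0.66 (SE 0.22, 95% interval -1.13 to -0.19). By edgeR's quasi-likelihood test the unadjusted p was 0.00911 and the adjusted p 0.918, so the difference did not pass over all genes. The groups stood apart in this way, with every KO library below every Het library, for 6.1% of all tested genes. A permutation test, exact and two-sided, gave p = 0.1, the smallest value that 3 against 3 libraries allow. In bulk RNA, fewer cells with the transcript and less transcript per cell cannot be told apart.

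The gene lies on the minus strand of chromosome 2, from 84998583 to 85037462 on GRCm38. Of its 2789 exonic bases, 51 overlap an exon of Ssrp1, a histone chaperone gene on the other strand. How reads there were counted is not given in the sources used here. Ssrp1 was at 112, 88.8 and 226 CPM in KO libraries and 135, 82.7 and 198 CPM in Het libraries, and its genotypes overlapped. P2rx3 is also a gene of sensory neurons, and 7 of the 12 spiral ganglion neuron markers were tested. Those 12 summed to between 980 and 1622 CPM in KO and between 1010 and 1162 CPM in Het libraries. Most of the sum came from the neurofilament genes Nefm, at 502 to 980 CPM in KO and 473 to 629 CPM in Het libraries, and Nefl, at 266 to 393 CPM in KO and 282 to 318 CPM in Het libraries. Snap25 and Isl1 were also present in every library, at 71.5 to 134 and 66.0 to 144 CPM in KO and at 94.7 to 144 and 80.1 to 127 CPM in Het libraries. Tubb3, the neuronal tubulin, and Prph, the intermediate filament protein peripherin, had at most 61 counts in any library and 0 in several. Rbfox3, a neuronal splicing factor, was the 1 marker of the list without overlap, at 43.6 to 83.6 CPM in KO and 7.03 to 35.1 CPM in Het libraries. The part of neuronal RNA in the P2rx3 result was not tested.

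P2rx2, whose subunit can assemble with P2X3 into a channel that desensitizes slowly, was near 0 in Het cells and low in KO cells. It had 31, 27 and 15 counts in KO replicates 1, 2 and 3, against 3, 0 and 0 counts in Het replicates 1, 2 and 3. In CPM these were 3.31, 3.52 and 1.67 in KO libraries and 0.244, 0 and 0 in Het libraries, so the genotypes did not overlap. Over the pooled libraries the ratio of KO to Het was 33.3, with a 95% interval from exact counting of 10.96 to 165 that covers counting error only. The fitted log2 fold change was 4.91 (SE 2.19), which depends on the prior count, and edgeR's quasi-likelihood test gave an unadjusted p of 0.0422 and an adjusted p of 0.92. With 1 library left out the unadjusted p from edgeR ran from 0.0336 without Het replicate 1 to 0.126 without Het replicate 2, and of these 6 fits it was under 0.05 only without Het replicate 1. Without a filter on low counts it was 0.0978. Every KO library lay above every Het library for 5.08% of all tested genes.

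Even in KO cells the P2X2 transcript was scarce beside that of P2X3. Per kb of exon there were 1.33, 1.27 and 0.746 units of P2rx2 for each 100 of P2rx3 in KO replicates 1, 2 and 3, against 0.0596, 0 and 0 in the Het libraries. P2rx2 lies on the minus strand of chromosome 5, from 110339812 to 110343212, and its 2574 exonic bases overlap no other annotated exon. P2rx3 made up 96.6% to 98.9% of the summed P2X level per kb in KO libraries and 97.0% to 98.4% in Het libraries.

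**Figure D3:**
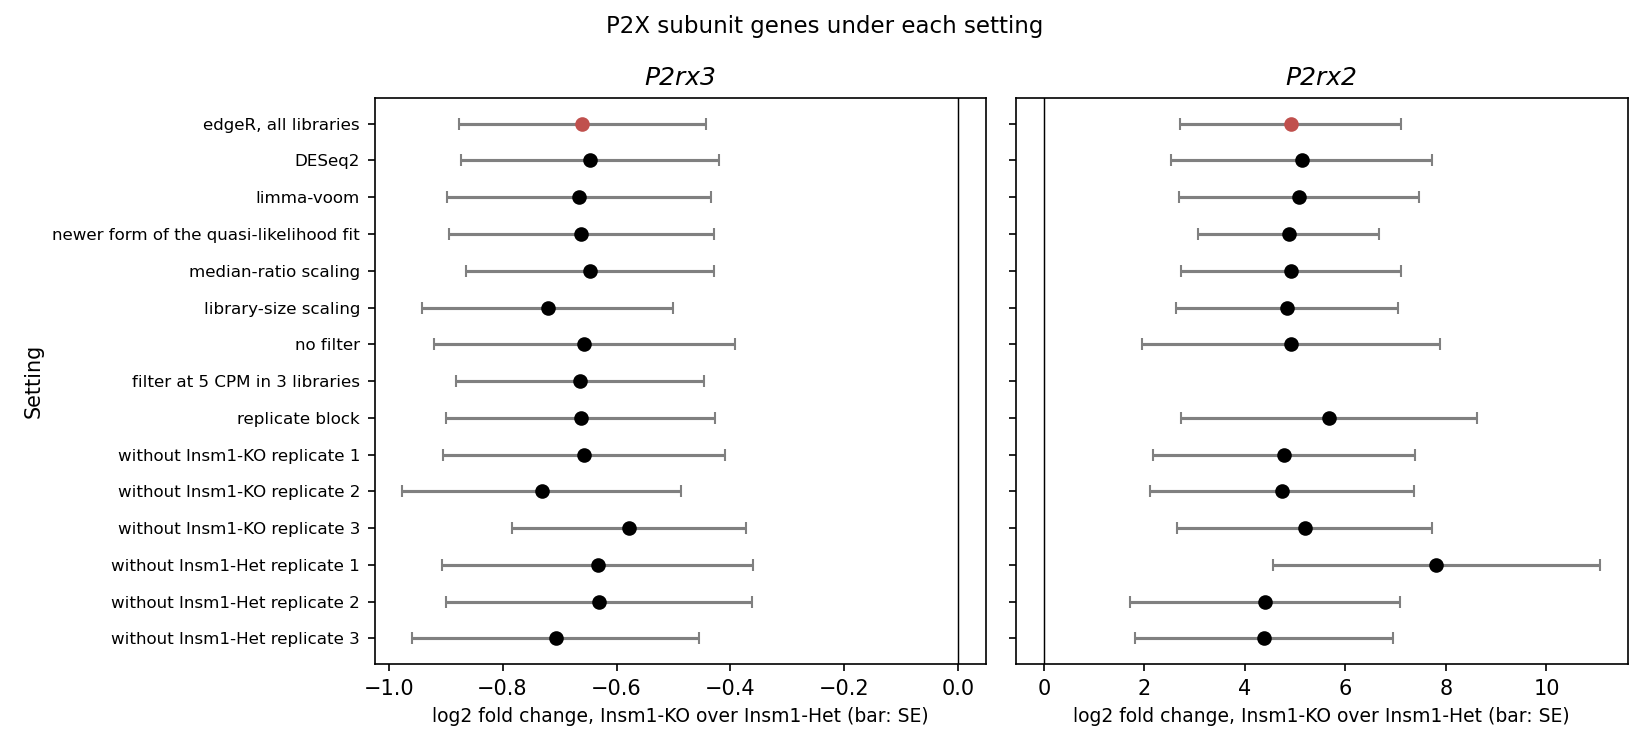
Log2 fold change of KO over Het (bars: SE) for P2rx3 and P2rx2 in the edgeR fit of all libraries (red) and under 14 alternatives; P2rx2 was below the stricter filter and has no value there. P2rx3 stays between -0.73 and -0.58 and P2rx2 between 4.38 and 7.81, on separate axes.

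The remaining P2X genes were low. P2rx4, a subunit found widely in epithelia, was at 0.320, 2.09 and 2.23 CPM in KO libraries and 10.3, 5.71 and 2.53 CPM in Het libraries. Every KO library thus lay below every Het library, as for 6.1% of all tested genes. The log2 fold change of P2rx4 was -1.99 (95% interval -5.17 to 1.19, unadjusted p = 0.2 by edgeR), and the interval includes 0. The counts were few, at 3, 16 and 20 in KO and 126, 61 and 32 in Het libraries. P2rx6, a subunit that mostly acts in heteromers, was at 3.42, 8.35 and 0.111 CPM in KO and 13.1, 13.02 and 7.90 CPM in Het libraries, with KO replicate 2 higher than Het replicate 3. Its log2 fold change was -1.52 (95% interval -4.34 to 1.30), and 554 of its 3995 exonic bases overlap Slc7a4 on the other strand. P2rx5 and P2rx7 had 1 count each in all, and P2rx1 had 0.

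P2Y receptors were sparse. P2ry6, the receptor for UDP and the one P2Y gene that was tested, was at 4.06, 0 and 0.111 CPM in KO and 1.30, 0.281 and 5.93 CPM in Het libraries, with a log2 fold change of -0.84 (95% interval -5.13 to 3.45). P2ry2, the receptor for ATP and UTP, had 0, 38 and 0 counts in KO and 44, 0 and 12 counts in Het libraries. Each was thus seen in libraries of both genotypes and absent or nearly so from others. P2ry1, a receptor for ADP, had 8 counts in KO replicate 1 and 0 elsewhere. P2ry12 and P2ry14 had 1 count each, and P2ry4, P2ry10 and P2ry13 had 0. P2ry12 and P2ry13 are known from microglia and related macrophages. The 10 macrophage markers summed to between 37.6 and 136 CPM in KO and between 86.5 and 170 CPM in Het libraries. Most of this came from Laptm5, which was seen in every library, and in Het replicate 3 also from Cx3cr1 with 594 counts and C1qb with 27 counts. Csf1r and Aif1 had 0 counts in every library, and each of the other 5 markers had at most 15 counts in all. Their part in the P2Y values was not tested.

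GABA-A receptors are pentamers that usually combine alpha, beta and gamma subunits. Of the 16 GABA-A subunit genes described, 0 passed the filter and 8 had 0 counts in every library. Among the alpha subunits, Gabra4 had 4 counts each in KO replicate 1 and Het replicate 1, Gabra5 had 1 count and Gabra6 had 4 counts in Het replicate 1, and Gabra2 and Gabra3 had 0. Gabrg1 and Gabrg3, gamma subunits, had 0 counts, as did Gabrb1, a beta subunit. Gabrb2, another beta subunit, had 1 count in KO replicate 3 and 9 and 49 counts in Het replicates 1 and 2. Most of these counts thus came from single libraries. Gabrd, the delta subunit, had 2 counts in Het replicate 3, and Gabrq, the theta subunit, had 6 counts each in KO replicate 2 and Het replicate 1. Gabre, the epsilon subunit, had 1 count in KO replicate 3 and 39 counts in Het replicate 2. Gabrr1, a rho subunit that can form channels by itself, had 53 counts in KO replicate 3 and 0 in the other 5 libraries. Gabrp, the pi subunit, and the rho subunits Gabrr2 and Gabrr3 had 0.

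The GABA-B receptor needs both of its subunits at the cell surface. Gabbr1, which binds GABA, was at 18.2, 24.7 and 10.5 CPM in KO and 18.6, 8.52 and 11.6 CPM in Het libraries, with overlap and a log2 fold change of 0.46 (95% interval -1.26 to 2.17). Gabbr2, which couples to the G protein, had 0 counts in every KO library and 4, 20 and 32 counts in Het replicates 1, 2 and 3. The pooled Het level was 13.6 times a floor of 3 counts over the KO group. This floor covers counting error in KO only, not the spread between libraries. Gabbr2 fell below the filter, and without a filter edgeR's test gave an unadjusted p of 0.0514 and an adjusted p of 0.688. The 95% interval of its log2 fold change in that fit was -14.1 to 0.043, which includes 0. The pattern of 0 counts in all KO libraries and at least 1 count in each Het library was chosen after the values were seen. It held for 2 of the 62 members, Gabbr2 and Grik3, and for 0.377% of all symbols, and the reverse pattern held for 0 members and 0.0257% of all symbols. The KO libraries were also the shallower ones.

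Glycine receptor genes were at or near 0 in most libraries, and 0 of the 5 were tested. Glra1, the adult alpha subunit, had 23 counts in Het replicate 1 and 0 in the other 5 libraries. Glra2, Glra3 and Glra4 had at most 11 counts in any library. Glrb, the beta subunit that binds gephyrin, had 4, 0 and 8 counts in KO and 17, 1 and 0 counts in Het libraries. The family sum was 0.526 ± 0.326 CPM in KO and 1.51 ± 1.74 CPM in Het libraries (SD, n = 3 each), and without Het replicate 1 the Het mean was 0.562 CPM.

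**Figure D4:**
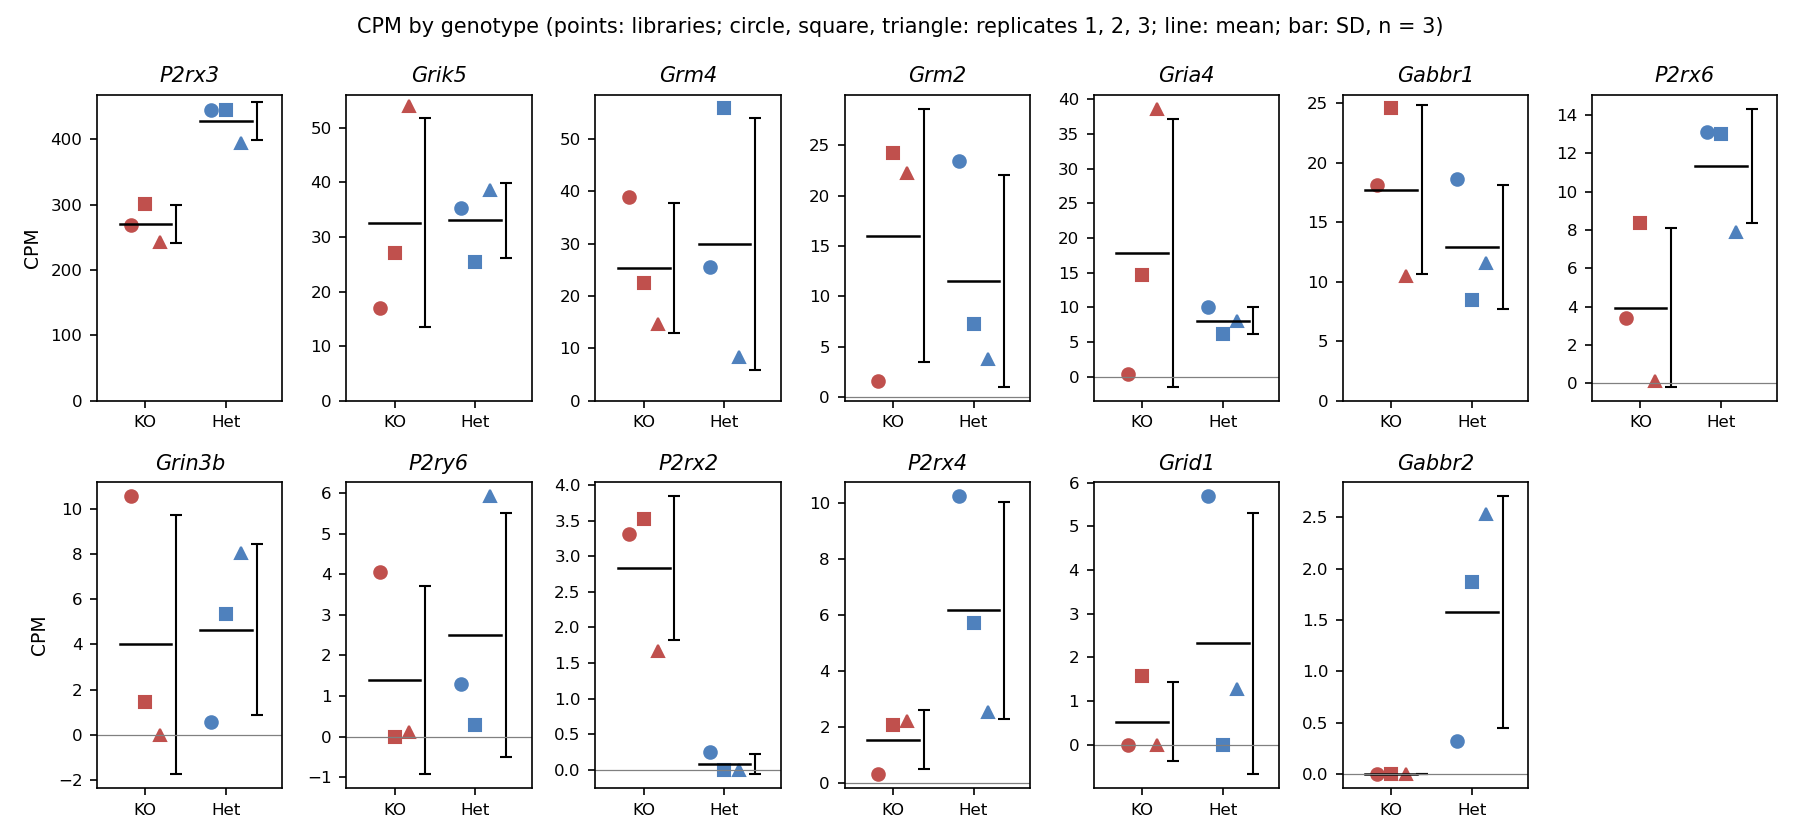
CPM of the 12 tested receptor genes described and of Gabbr2 in each KO and Het library (circle, square and triangle for replicates 1, 2 and 3), with the mean (line) and SD (bar, n = 3, which can pass below 0). KO and Het points are separate for P2rx3, P2rx2, P2rx4 and Gabbr2 and overlap in the other 9 panels. Of all tested genes, 6.1% had every KO library below every Het library and 5.08% had every KO library above.

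Among ionotropic glutamate receptors, 1 gene of each family was tested. Grik5, a kainate subunit that binds glutamate with high affinity but needs another kainate subunit to form a channel, was at 17.0, 27.0 and 54.0 CPM in KO and 35.3, 25.4 and 38.6 CPM in Het libraries. The 2 means were close, at 32.6 ± 19.1 and 33.1 ± 6.88 CPM (SD, n = 3 each), and the KO libraries lay on both sides of the Het libraries. The log2 fold change was -0.02 (95% interval -1.31 to 1.27). Its possible partners Grik1, Grik2 and Grik3 had at most 6 counts in any library, and Grik4 had 6, 1 and 0 counts in KO and 6, 0 and 45 counts in Het libraries.

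Gria4 was the leading AMPA subunit gene. It was at 0.320, 14.6 and 38.6 CPM in KO replicates 1, 2 and 3, against 10.02, 6.09 and 8.06 CPM in Het replicates 1, 2 and 3. The KO libraries spanned a range that held all Het libraries, with KO replicate 1 the lowest and KO replicate 3 the highest. The log2 fold change was 1.15 (95% interval -1.38 to 3.68), and it was -0.11 without KO replicate 3. Gria2, the subunit that lowers calcium permeability, had 0, 0 and 35 counts in KO and 12, 0 and 2 counts in Het libraries. Gria1 had at most 9 counts in any library, and Gria3 had 26 counts in Het replicate 1 and at most 3 elsewhere.

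For NMDA receptors the obligatory subunit gene Grin1 had 0 counts in every KO library and 12, 1 and 0 counts in Het libraries. Grin3b, a glycine-binding subunit, was the NMDA gene tested, at 10.6, 1.43 and 0 CPM in KO and 0.570, 5.34 and 8.06 CPM in Het libraries. Its genotypes overlapped, with a log2 fold change of -0.22 (95% interval -3.91 to 3.48). Of its 3296 exonic bases, 1059 overlap Tmem259 on the other strand. The strand setting of the counting is not given in the sources used here, so the Grin3b counts are uncertain. Other genes described also overlap genes on the other strand, among them Grin1, Grin2d, Grm2 and P2ry1 by 1307, 643, 470 and 992 bases. Grin3a, a close relative of Grin3b, had 28, 10 and 1 counts in KO and 1, 0 and 0 counts in Het libraries. Grin2d had 137 counts in Het replicate 2 and at most 2 in any other library. Grin2a and Grin2c had 2 counts each, both in Het replicate 1, and Grin2b had 2 counts in KO replicate 3 and 10 in Het replicate 1. Grid1, a delta receptor subunit that binds cerebellins, had 0, 12 and 0 counts in KO and 70, 0 and 16 counts in Het libraries, with a log2 fold change of -2.15 (95% interval -7.12 to 2.82).

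Of the metabotropic glutamate receptors, Grm4 and Grm2 were tested, which both couple to inhibitory G proteins. Grm4 was at 38.9, 22.6 and 14.6 CPM in KO and 25.5, 55.8 and 8.30 CPM in Het libraries, and Het replicates held both the highest and the lowest value. Grm2 was at 1.60, 24.3 and 22.3 CPM in KO and 23.5, 7.30 and 3.79 CPM in Het libraries, and KO replicate 1 was the lowest of all 6. Their log2 fold changes were -0.24 (95% interval -1.82 to 1.34) for Grm4 and 0.48 (95% interval -1.80 to 2.75) for Grm2. Grm5, a receptor that couples to phospholipase C, had 2 counts in KO replicate 3 and 8 in Het replicate 1. Grm3 and Grm7 had at most 4 counts in any library, Grm8 had 20 counts in Het replicate 1 and 2 in KO replicate 3, and Grm6 had 0.

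In the order of mean level per kb among the genes described, P2rx3 was clear of the others. Grik5, Grm4 and Grm2 ranged over 3.28 to 10.4, 2.44 to 6.50 and 0.327 to 4.96 CPM per kb in KO libraries and over 4.91 to 7.46, 1.39 to 9.34 and 0.775 to 4.79 CPM per kb in Het libraries. The ranges of these 3 genes overlapped in the KO libraries, and Grik5 and Grm2 were separate in the Het libraries. Gria4, Gabbr1 and P2rx6 followed with KO means of 2.83, 2.29 and 0.991 CPM per kb and Het means of 1.28, 1.67 and 2.84 CPM per kb, and each overlapped the next in range.

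Genes of receptor assembly, transmitter supply and clearance were read from the same fit. Of 89 such genes in the files, 52 were tested, and 0 passed over all genes. Of the 52, 32 had a log2 fold change above 0 and 20 below 0 (median 0.18). Across all tested genes, 50.9% lay above 0 (median 0.02). At an unadjusted p under 0.05 by edgeR, 0 of the 52 were higher and 2 were lower in KO. The shares of all tested genes under this rule were 3.19% higher and 2.15% lower. Gjb2, the gap junction protein connexin 26 of supporting cells, through which ATP can also leave cells as hemichannels, was at 7.90, 6.52 and 4.23 CPM in KO and 32.2, 14.3 and 52.5 CPM in Het libraries. The log2 fold change was -2.41 (SE 0.78), with an unadjusted p of 0.00857 and an adjusted p of 0.918 by edgeR. Every KO library lay below every Het library for Gjb2, as for Dlg3, Homer2 and Slc1a4. These made 4 of the 52 tested partner genes, against 6.1% of all tested genes. Without Het replicate 3 the unadjusted p was 0.0778. The 10 supporting cell markers summed to between 1334 and 1941 CPM in KO and between 1127 and 1364 CPM in Het libraries, and their part in the Gjb2 result was not tested.

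Slc1a4, a transporter of neutral amino acids in the glutamate transporter family, was at 119, 61.6 and 69.9 CPM in KO and 144, 206 and 133 CPM in Het libraries. Each KO library lay below each Het library, as for 6.1% of all tested genes. The log2 fold change was -0.95 (SE 0.35), with an unadjusted p of 0.0178 and an adjusted p of 0.92 by edgeR. The unadjusted p was 0.0652 without KO replicate 2 and 0.104 without Het replicate 2. The other genes named here were the most abundant per kb in their groups. Slc6a11, the GABA transporter GAT-3, was at 472, 499 and 519 CPM in KO and 422, 419 and 342 CPM in Het libraries. Its log2 fold change was 0.33 (95% interval -0.11 to 0.77). Each KO library lay above each Het library for Slc6a11, as for Cnih2, Gphn and Nlgn2. These made 4 of the 52 tested partner genes, against 5.08% of all tested genes. The 8 glial markers, of which Foxd3 had 0 counts in every library, also stood higher in KO, at 165 to 174 CPM against 112 to 161 CPM in Het libraries, and their part in the Slc6a11 result was not tested. Olfm1, a secreted protein found in AMPA receptor complexes, was at 322 ± 105 CPM in KO and 249 ± 14.0 CPM in Het libraries (SD, n = 3 each). Gabarap, which links GABA-A receptors to their trafficking machinery and acts in autophagy, was at 218 ± 57.9 and 181 ± 39.4 CPM (SD, n = 3 each) in KO and Het libraries. The genotypes of Olfm1 and Gabarap overlapped.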

How the data were processed

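Outer hair cell RNA was sequenced after removal of ribosomal RNA, with random-hexamer priming and amplification per the labels' protocols. The authors deposited raw read counts per gene symbol, made with Trimmomatic, STAR and HTSeq on GRCm38 per the submitters' processing notes. The sources used here give neither the strand setting nor the annotation.

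Groups came from the sample titles. Genes were kept by filterByExpr (minimum count 10, minimum total 15), which removed 0.274% of the counts, and scaled by TMM. Genotypes were compared with the quasi-likelihood F test of edgeR 4.0.16 (default form, genotype only) under R 4.3.3, with Benjamini-Hochberg adjustment over all tested genes at 0.05. The SE is the log2 fold change divided by the square root of F. CPM are counts over the tested library total times the TMM factor, per 1000000. Exon lengths, positions and overlaps came from GENCODE M21 on GRCm38, in which all 62 genes described were matched. The naming rule of the gene families matched 67 symbols, and the others are not reported here and enter no count or sum of receptor genes. The fits were also run on simulated counts with changes larger than that of P2rx3. The outcome is not given here, and that run does not bear on differences as small as that of P2rx3.

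Values in every library were set for the 15 described members highest per kb, members with an unadjusted p under 0.05 or without overlap, the top member of each family, and for partner genes those with an unadjusted p under 0.05 and the top of each group. Values of other genes were added after they were seen. The members and lists were chosen with earlier results of these data known. Alternatives used DESeq2 1.42.0, limma 3.58.1, other scalings, filters and forms of the fit, a replicate block and 1 library left out. No identical libraries were found.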

Additional observations from a re-analysis of the deposited data

How the results depend on the processing

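The count of receptor genes past the threshold was 0 under all 14 alternatives. The count over all genes, 0 in the edgeR fit, was 26 with DESeq2, 67 with no filter, 1 in the newer form of the fit and 1 with the replicate block, and 0 partner genes became 1 (Enpp2) with no filter. The 2 receptor genes at an unadjusted p under 0.05 were 1 (P2rx3) with the filter at 5 CPM in 3 libraries and with the replicate block, and 1 to 3 with 1 library left out (Gabbr2 joined without Het replicate 1). With no filter they were 3, namely P2rx3, Gabrr1 and Grin2d, and P2rx2 was not among them. Gabrr1 had 53 counts in KO replicate 3 and 0 elsewhere, and Grin2d had 137 in Het replicate 2 and at most 2 elsewhere. P2rx3 kept an unadjusted p under 0.05 in each of its 14 alternatives, with a log2 fold change from -0.73 to -0.58 and an adjusted p from 0.292 upward. Its value with the replicate block was -0.66. Same-numbered libraries did not deviate together (correlations of 0.010, 0.0073 and 0.014), so the numbers are not taken as pairs.

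Directions turned for 5 genes that passed in no setting. Leaving out 1 library gave log2 fold changes from -0.11 to 1.72 for Gria4, from -0.58 to 0.29 for Grik5, from -2.69 to 0.45 for Grin3b, from -0.69 to 0.58 for Grm4 and from -5.18 to 0.80 for P2ry6. Gria4 was at -0.53 by limma-voom, and Grm4 at 0.11 by limma-voom and 0.058 with the replicate block. The causes were not tested. Members with at least 10 counts in all libraries numbered 5, and 5, 4 and 5 at minimums of 5 counts, 20 counts and 1 CPM. Family sums moved by less than 1 SD under the other scalings. With 1 library left out, the mean sum ran from 7.62 to 28.7 CPM for AMPA, 1.54 to 8.20 CPM for NMDA, 0 to 0.783 CPM for delta and 0.605 to 3.45 CPM for the GABA-A genes in KO libraries, and from 5.50 to 13.2 CPM for NMDA, 0.632 to 3.48 CPM for delta, 1.06 to 5.10 CPM for the GABA-A genes, 2.63 to 5.88 CPM for P2Y and 0.562 to 2.27 CPM for glycine receptors in Het libraries.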

Other observations

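These partner genes were picked once their values had been seen. Gad2, which makes GABA from glutamate, had 375, 947 and 473 counts in KO replicates 1, 2 and 3, against 1064, 433 and 1288 counts in Het replicates 1, 2 and 3, while Slc32a1, the vesicular GABA transporter, had 0 counts in every library. Gad1, the other GABA-making enzyme, had 10 counts in Het replicate 1 and 0 elsewhere. Cbln1, a secreted ligand of delta receptors in the cerebellum, had 1041, 636 and 618 counts in KO and 1146, 987 and 835 counts in Het libraries, where Grid1 had at most 70 counts. Cacng5, an auxiliary subunit of AMPA receptors, had 1765, 919 and 1102 counts in KO and 1624, 1462 and 1633 counts in Het libraries, above the highest Gria count of 347. Gad2, Cbln1 and Cacng5 were tested and did not pass by edgeR, and their genotypes overlapped.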
